A study of Mus musculus with 26 samples.

Results

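The MYC network genes Myc, Mycl, Mycn, Max, Mxd1, Mxd3, Mxd4, Mxi1 and Mnt, together with the long non-coding RNA gene Pvt1, were followed through every RNA-seq library of 4T1 control and MaTAR25 KO cells. These 10 genes were listed by name from the 45318 genes of the count files. No rule on their measured values picked them, but earlier results of these data were known when they were listed. 4T1 is a mouse mammary carcinoma cell line of the BALB/c strain, and MaTAR25 (1200007C13Rik) is a nuclear long non-coding RNA. The control group held 2 libraries of cells labelled wild type, which the study made with a guide RNA against Renilla luciferase. The KO1 group held 3 libraries and the KO2 group 4 libraries of cells labelled MaTAR25-/-. KO1 and KO2 are each 1 clone grown from a single cell, in which paired guides removed the stretch over the MaTAR25 start site, so a property of a clone and an effect of the deletion cannot be told apart within it. The study grew its control cells from single cells too, and chose control clones with MaTAR25 levels near those of parental 4T1 cells. A property of the control cells would enter both KO comparisons and cannot be told apart from an effect of the deletion either. ChIRP-seq, in which biotinylated oligos against an RNA pull down the chromatin it contacts, was available as 4 peak lists from 4T1 cells and from cells labelled both as primary NDL cells and as MMTV-PyMT, of the FVB strain.

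MYC is a transcription factor that binds DNA as a dimer with MAX, at the E-box CACGTG, and activates genes of ribosome assembly, metabolism and the cell cycle. The MXD proteins, MXI1 and MNT also dimerise with MAX, compete with MYC for the same sites, and recruit SIN3 and histone deacetylases to repress them. Pvt1 lies downstream of Myc on the same strand and is gained together with it in many tumors.

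Gene counts per library ranged from 25367211 to 61110585. Reads in no gene made up 33.9 and 34.3% of all counted reads in control, 34.8 to 35.0% in KO1 and 35.6 to 37.0% in KO2 libraries. The 3 groups did not overlap in this share, and its part in the results was not tested. MaTAR25 was at 0.768 and 0.915 CPM (counts relative to the scaled library size) in the control libraries and at 0 to 0.307 CPM in the 7 KO libraries, so the targeted gene followed the labels in every library, at 30 and 35 counts in the controls. The 11 epithelial markers summed to 5497 to 5664 CPM in control, 6815 to 8472 CPM in KO1 and 2771 to 5015 CPM in KO2 libraries, with Krt5 at 0 throughout. Of the 9 that were tested, 1 fell in KO cells, Cdh1 (11.1% called, beside 22.6% of all genes). Between the clones 5 were called, each higher in KO1 than in KO2 (55.6%, beside 19.6% of all genes). The 14 markers of fibroblasts, immune, endothelial, fat and red blood cells summed to 23.9 to 30.3 CPM in control, 40.1 to 69.2 CPM in KO1 and 15.2 to 52.7 CPM in KO2 libraries, with Adgre1 and Hba-a1 at 0 throughout. On average over each group most of this was Pdgfra and Cd68, and of the 6 of these markers that were tested 1 was called in KO cells, the collagen gene Col1a1, which was at 2.65 and 3.99 CPM in control and 0.0842 to 0.995 CPM in KO libraries. In KO1 alone, where 31.6% of all genes were called, Col1a1 fell and 2 of the 6 tested markers rose. In KO2 alone, where 31.4% of all genes were called, Col1a1 fell and 1 rose. With only 6 markers tested, nothing is read from these counts beside those shares. Of the 6 tested markers, 3 passed the filter on low counts through only 1 of the control and KO groups. The filter set the direction of those 3, so nothing is read from it. The part of these markers in the results was not tested. In such bulk RNA, fewer cells of a type and less RNA per cell cannot be told apart. The labels do not say that libraries of a group came from separate cultures, so p-values measure only the spread between these libraries.

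Of the 9 members with counts, 4 were called in KO against control cells at an adjusted p below 0.1 in the quasi-likelihood test of edgeR, with p-values adjusted by Benjamini-Hochberg over 15023 genes. Myc, Pvt1 and Mxd4 fell and Mxd3 rose. Over all genes tested, 3392 were called (22.6%), of which 1789 were higher in KO (11.9%) and 1603 lower (10.7%). The median log2 fold change was -0.54 over the 9 members and 0.06 over all genes tested. The same 4 members were called in KO1 cells, where 31.6% of all genes were called, and in KO2 cells, where the share was 31.4%. Both clones were set against the same 2 control libraries, so these are not separate sets of evidence.

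**Figure D1:**
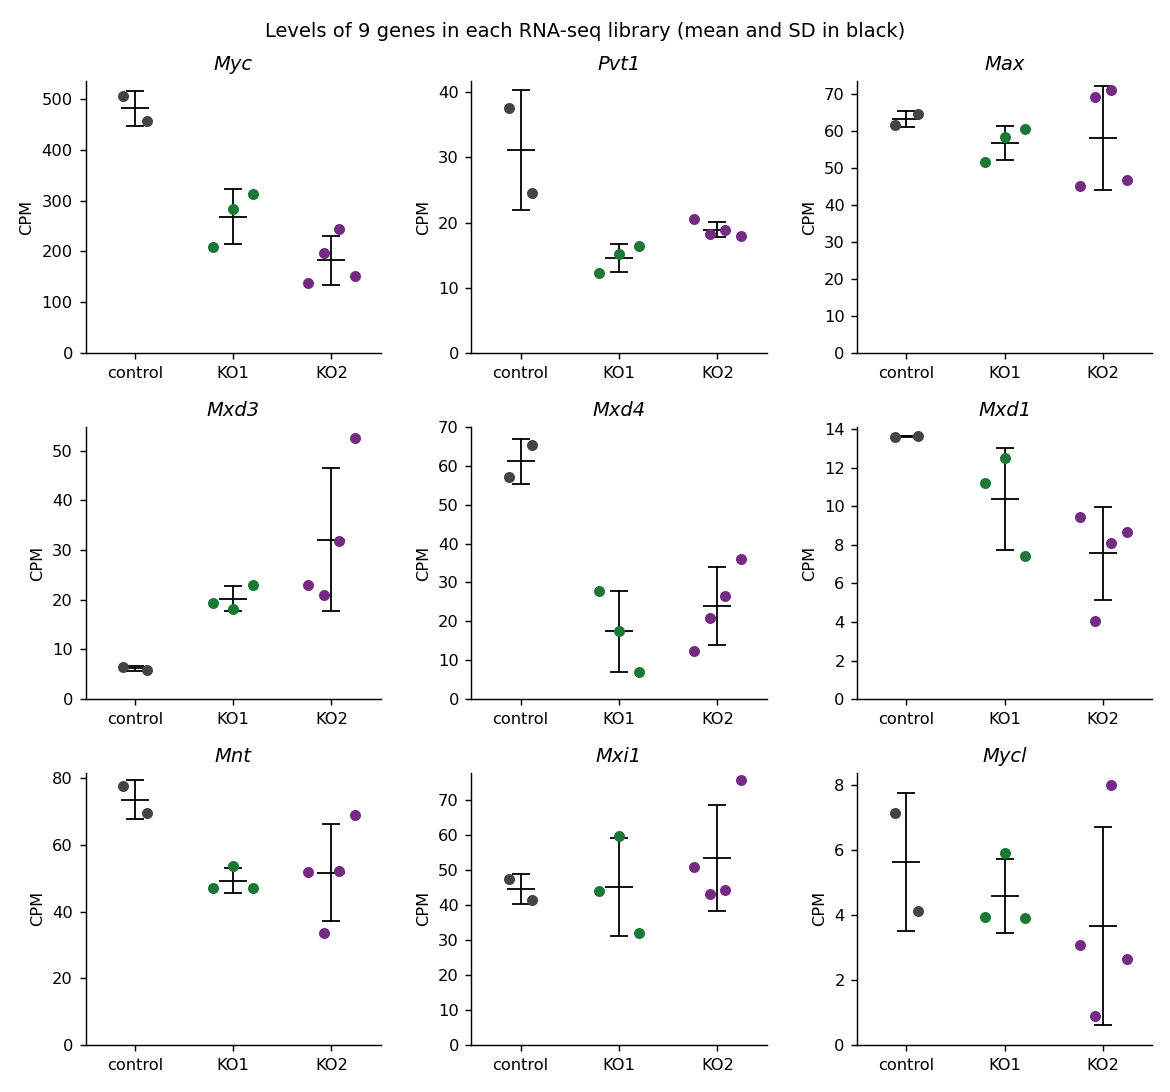
CPM of 9 genes (y axis, from 0) in each control, KO1 and KO2 library, 1 point to a library, with the mean and SD of each group in black. The Myc points of the 7 KO libraries, at 138 to 313 CPM, lie below both control points, and the Mxd3 points, at 18.2 to 52.4 CPM, lie above them.

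Myc was the most abundant member in every group. It was at 506 and 457 CPM in the control libraries. The KO1 libraries had 209, 284 and 313 CPM, and the KO2 libraries 138, 197, 245 and 153 CPM. The control and KO libraries did not overlap, and those of KO1 and KO2 did. Myc (chromosome 15, 61985391 to 61990374, plus strand, mm10) fell by 1.13 on the log2 scale (SE 0.27), a level 2.19-fold lower in KO cells, with an adjusted p of 0.0205 in edgeR. The log2 fold change was -0.84 (SE 0.25, edgeR adjusted p = 0.0402) in KO1 and -1.39 (SE 0.24, edgeR adjusted p = 0.00444) in KO2. The 2 control libraries carry this call: it was lost without control replicate 1 (log2 fold change -1.04, edgeR adjusted p = 0.205) and without control replicate 2 (-1.20, edgeR adjusted p = 0.141), in which case a single control library is assumed to vary like the other groups. In KO1 alone the call was also lost without KO1 replicate 1 (-0.69, edgeR adjusted p = 0.114). In KO2 alone the log2 fold change of Myc was -1.31 without control replicate 1 and -1.46 without control replicate 2.

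Of the other MYC paralogs, Mycl was low and Mycn was not detected. Mycl, a paralog with a narrower range of tissues, was at 7.13 and 4.12 CPM in control libraries, at 3.90 to 5.90 CPM in KO1 and at 0.884 to 8.01 CPM in KO2. Its highest and its lowest value were both in KO2 libraries, and its log2 fold change was -0.47 (SE 0.61, edgeR adjusted p = 0.636). Mycn, the paralog first found amplified in neuroblastoma, had 0 counts in each of the 9 libraries, which at 3 counts a library allows at most 0.0478 to 0.126 CPM, for counting error only.

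Max, the dimerisation partner shared by MYC and its antagonists, did not pass the test. It was at 61.7 and 64.7 CPM in control libraries, at 51.7 to 60.6 CPM in KO1 and at 45.3 to 71.1 CPM in KO2. The KO2 libraries lay on both sides of the controls, and the log2 fold change was -0.13 (SE 0.20, edgeR adjusted p = 0.681). On a scale per length (RPKM, CPM per kilobase of annotated exon), the level of Myc was 10.1 ± 1.07 (SD, n = 2) times that of Max in control libraries. This ratio was 6.21 ± 0.764 (SD, n = 3) in KO1 and 4.17 ± 0.349 (SD, n = 4) in KO2. The ranges of the 3 groups did not overlap, with 9.34 as the lowest control ratio and 6.83 as the highest KO ratio.

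The antagonists moved in different directions. Mxd3, a MAD family repressor known for its expression in cells in S phase, was at 6.48 and 5.86 CPM in control libraries. It was at 19.4, 18.2 and 23.0 CPM in KO1 and at 22.9, 21.0, 31.9 and 52.4 CPM in KO2. All 7 KO libraries were above both controls, with KO2 replicate 4 the highest. Mxd3 (chromosome 13, 55325168 to 55329823, minus strand) rose by 2.13 on the log2 scale (SE 0.44), 4.37-fold, with an edgeR adjusted p of 0.0123. The log2 fold change was 1.71 (SE 0.39, edgeR adjusted p = 0.0136) in KO1 and 2.38 (SE 0.39, edgeR adjusted p = 0.00395) in KO2. The call was lost without control replicate 1 (edgeR adjusted p = 0.141) or without control replicate 2 (edgeR adjusted p = 0.145), at log2 fold changes of 2.22 and 2.07.

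The last 105 bases of Mxd3 exons overlap exons of Prelid1, a gene of the other strand that codes for a mitochondrial lipid transfer protein and that was looked at here after its values were seen. The library kit does not mark strand and the counting was not stated to use it, so reads in that stretch, 4.43% of the Mxd3 exon length, cannot be assigned. Prelid1 was at 128 and 137 CPM in control, 222 to 269 CPM in KO1 and 228 to 377 CPM in KO2 libraries. Its log2 fold change was 1.08 (SE 0.24, edgeR adjusted p = 0.0155). Mxd3 had 5.04 and 4.27 counts per 100 Prelid1 counts in the control libraries and 5.58 to 14.6 in the KO libraries, so all 7 KO ratios were above both control ratios. The part of the shared bases in the change of Mxd3 was not tested.

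Mxd4, a MAD family member associated with differentiated and resting cells, was at 57.2 and 65.3 CPM in control libraries. It was at 27.9, 17.4 and 6.95 CPM in KO1 and at 12.4, 21.0, 26.4 and 36.2 CPM in KO2. All KO libraries lay below the controls, with KO1 replicate 3 the lowest and KO2 replicate 4 the highest of them. Mxd4 (chromosome 5, 34173883 to 34187720, minus strand) fell by 1.53 on the log2 scale (SE 0.44), to a level 2.89-fold lower, with an edgeR adjusted p of 0.0440. The log2 fold change was -1.81 (SE 0.53, edgeR adjusted p = 0.0355) in KO1 and -1.35 (SE 0.49, edgeR adjusted p = 0.0745) in KO2. The call was lost without control replicate 1 (-1.61, edgeR adjusted p = 0.221) and without control replicate 2 (-1.43, edgeR adjusted p = 0.278), and with the replicate number as a block (-1.64, edgeR adjusted p = 0.112). In KO2 alone it was also lost without KO1 replicate 2 (edgeR adjusted p = 0.104), KO2 replicate 1 (0.130) or KO2 replicate 2 (0.114).

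The stretches before the start sites of the 2 antagonists that were called are shown because the E-box CACGTG, to which MYC, MXD and MNT dimers with MAX bind, is in one and not in the other. The sequences are those of RefSeq on GRCm38.p6, 250 bases that end just before the RefSeq start site. They are written 5′ to 3′ along each gene's minus strand, with any CACGTG in capitals. The gene positions given above are from GENCODE and begin further upstream, so part of each stretch lies within the gene as placed there. They lie at chr5:34187711-34187960 for Mxd4 and at chr13:55329732-55329981 for Mxd3.
Mxd4: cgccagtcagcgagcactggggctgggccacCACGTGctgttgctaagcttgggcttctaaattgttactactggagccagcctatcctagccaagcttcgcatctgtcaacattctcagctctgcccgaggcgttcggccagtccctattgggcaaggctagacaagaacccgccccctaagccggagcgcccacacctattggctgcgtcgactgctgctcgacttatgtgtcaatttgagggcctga
Mxd3: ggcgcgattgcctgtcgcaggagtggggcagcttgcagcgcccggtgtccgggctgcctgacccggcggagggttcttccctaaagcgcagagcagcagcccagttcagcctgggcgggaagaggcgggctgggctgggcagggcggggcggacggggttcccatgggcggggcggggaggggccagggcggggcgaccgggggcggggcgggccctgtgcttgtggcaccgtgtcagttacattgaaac
The E-box of Mxd4 begins at position -219 from the start site, and the Mxd3 stretch is richer in G and C (73.2% against 58.0%). In windows of 300 bases, which add 50 bases after the start, CACGTG was found for Mxd4, Mnt and Max among the 8 members matched by symbol, which have 10 windows in all. The motif reads the same on both strands, and 7.15% of the 32851 promoter windows of the RefSeq table hold it. A match is only a run of letters, and binding of these factors was not measured here.

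Mnt and Mxd1 did not pass the test, although their KO and control libraries did not overlap. Mnt, a MAX-binding repressor made in most cells, was at 77.7 and 69.4 CPM in control libraries. It was at 47.1, 53.6 and 47.1 CPM in KO1 and at 51.9, 33.7, 52.1 and 69.1 CPM in KO2. KO2 replicate 4 lay next to the lower control library, and the log2 fold change was -0.54 (SE 0.22, edgeR adjusted p = 0.123). Mnt was called without KO2 replicate 4 (edgeR adjusted p = 0.04996), without KO2 replicate 2 (0.0920), and when KO1 and KO2 were fitted as separate groups (0.0983). Mxd1, a MAD family member induced during differentiation, was at 13.6 CPM in both control libraries. It was at 7.41 to 12.5 CPM in KO1 and at 4.04 to 9.45 CPM in KO2, with a log2 fold change of -0.63 (SE 0.35, edgeR adjusted p = 0.244). In KO2 alone the log2 fold change of Mxd1 was -0.84 (SE 0.35, edgeR adjusted p = 0.109). There Mxd1 was called by DESeq2 (DESeq2 adjusted p = 0.0634) and with at least 10 counts in every library (edgeR adjusted p = 0.0955). In all, 6 of the 9 members had control and KO libraries that did not overlap, beside 34.4% of all genes tested.

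Mxi1, the remaining MAD family member, was at 47.5 and 41.5 CPM in control libraries, at 31.9 to 59.9 CPM in KO1 and at 43.1 to 75.6 CPM in KO2. The groups overlapped, and the log2 fold change was 0.17 (SE 0.28, edgeR adjusted p = 0.723).

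Summed per length, the 5 antagonists Mxd1, Mxd3, Mxd4, Mxi1 and Mnt were at 34.2 ± 1.38 RPKM (SD, n = 2) in control, 29.3 ± 2.73 RPKM (SD, n = 3) in KO1 and 36.4 ± 12.2 RPKM (SD, n = 4) in KO2. KO2 replicate 4 was the highest library, at 53.6 RPKM. Within this sum the makeup differed. The share of Mxd3 was 7.61 ± 0.231% in control, 29.5 ± 6.52% in KO1 and 36.3 ± 4.36% in KO2, and that of Mxd4 was 21.2 ± 2.86%, 6.88 ± 4.01% and 7.77 ± 2.18%. The level of Myc was 5.18 ± 0.162 times the summed antagonists in control, 3.41 ± 0.887 times in KO1 and 2.02 ± 0.824 times in KO2. The lowest control ratio was 5.07 and the highest KO ratio 4.35.

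**Figure D2:**
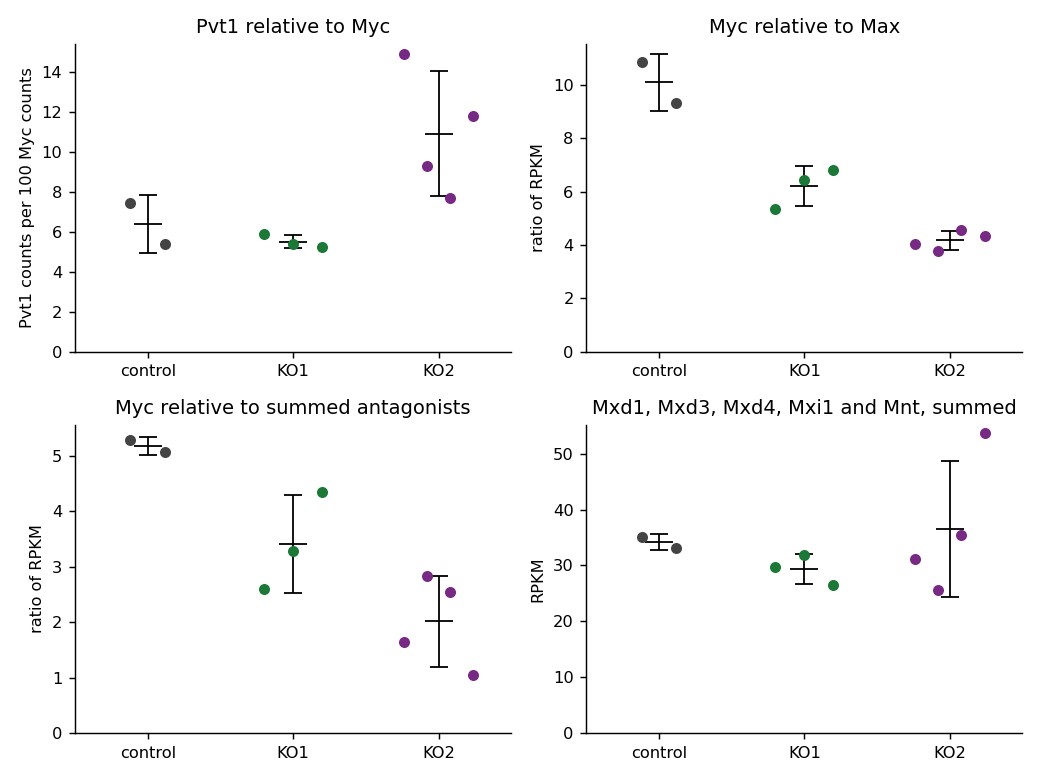
Ratios and sums per library (y axes, from 0) in control, KO1 and KO2 libraries, 1 point to a library with mean and SD in black. Myc relative to Max and relative to the summed antagonists is lower in all 7 KO libraries than in both controls, while the antagonist sum overlaps between groups and reaches 53.6 RPKM in 1 KO2 library.

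In control libraries the order of mean levels per length was Myc (177 RPKM), Max (17.6), Mnt (15.9), Mxd4 (7.22), Mxi1 (6.52), Pvt1 (4.44), Mxd3 (2.60), Mxd1 (1.93) and Mycl (1.39). Mxd4 and Mxi1 differed by less than the sum of their SDs (0.682 and 0.623 RPKM), as did Mxd1 and Mycl (0.00275 and 0.528 RPKM). In KO2 libraries Mxd3 stood at 13.5 ± 6.07 RPKM, beside Mnt at 11.2 ± 3.12 and Max at 16.1 ± 3.89, which it did not differ from beyond their SDs. Mxd4 was at 2.83 ± 1.17 RPKM in KO2, beside Pvt1 at 2.70 ± 0.167.

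Pvt1, a long non-coding RNA gene that hosts several microRNAs, was at 37.6 and 24.6 CPM in the control libraries. The KO1 libraries had 12.3, 15.3 and 16.4 CPM, and the KO2 libraries 20.6, 18.2, 18.9 and 18.0 CPM. All KO libraries were below both controls, the controls were 1 high and 1 nearer to KO2, and every KO1 library was below every KO2 library. Pvt1 (chromosome 15, 62037986 to 62378096, plus strand) fell by 0.86 on the log2 scale (SE 0.23), a level 1.82-fold lower, with an edgeR adjusted p of 0.0300. The log2 fold change was -1.09 (SE 0.23, edgeR adjusted p = 0.0107) in KO1 and -0.72 (SE 0.22, edgeR adjusted p = 0.0419) in KO2. The call was lost without control replicate 1 (-0.51, edgeR adjusted p = 0.442) and under the replicate block (-0.89, edgeR adjusted p = 0.121), and it was kept without control replicate 2 (-1.13, edgeR adjusted p = 0.0913). Of the 5 genes that overlap Pvt1, none had more than 10 counts in a library.

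The order of the clones was opposite for Myc and for Pvt1, with Myc lower in KO2 and Pvt1 lower in KO1. Per 100 Myc counts, Pvt1 had 7.43 and 5.38 counts in the controls. The KO1 libraries had 5.87, 5.37 and 5.24, and the KO2 libraries 14.9, 9.27, 7.70 and 11.8. The KO1 ratios lay within or just below the control range and all 4 KO2 ratios lay above it, with means of 6.40 ± 1.45 (SD, n = 2), 5.49 ± 0.329 (SD, n = 3) and 10.9 ± 3.14 (SD, n = 4). Across the 9 libraries, which share 3 cell lines, log2(CPM + 1) of Myc and Pvt1 had a Pearson r of 0.57 and a Spearman rho of 0.28. Within the 7 KO libraries r was -0.43 and rho was -0.54. These are descriptions over few libraries that differ in depth and clone.

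The clones were compared directly as well. None of the 9 members was called between KO1 and KO2, where 19.6% of all genes were called, by edgeR or by DESeq2. At an unadjusted p below 0.05 there was 1 member in edgeR, Myc (log2 fold change of KO1 against KO2 0.55, SE 0.21, edgeR adjusted p = 0.123), and in DESeq2 there were 2, Myc and Mxd3. The difference was -0.67 (SE 0.31) for Mxd3, -0.46 (SE 0.45) for Mxd4 and -0.37 (SE 0.20) for Pvt1. Myc was called between the clones without KO2 replicate 3 (0.72, edgeR adjusted p = 0.0313) and Mxd3 without KO2 replicate 2 (-0.83, edgeR adjusted p = 0.0912).

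**Figure D3:**
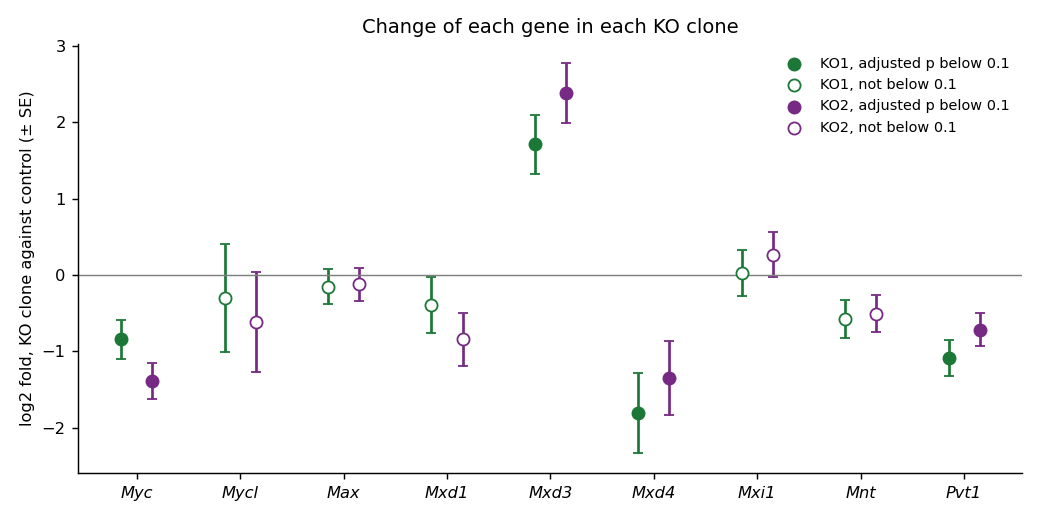
Log2 fold change ± SE (y axis) of 9 genes in KO1 and in KO2 cells against the same 2 control libraries, with filled points for an adjusted p below 0.1 in edgeR. Myc, Mxd4 and Pvt1 are below 0 and Mxd3 above 0 in both clones, and Myc is further below 0 in KO2 (-1.39) than in KO1 (-0.84), while Pvt1 is further below 0 in KO1 (-1.09) than in KO2 (-0.72).

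As a test that needs no model, log2(CPM + 1) of each member was compared by a two-sided exact permutation test over all 36 splits of 9 libraries into 7 and 2, whose smallest possible p is 0.0278. Myc, Mxd3 and Pvt1 reached 0.0278 in this exact test. The exact p was 0.0556 for Mxd4, 0.0833 for Mnt, 0.139 for Mxd1, 0.361 for Mycl, 0.5 for Max and 0.722 for Mxi1. These are 9 tests, and their p-values are not adjusted.

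The genes around Myc and Pvt1 were mostly silent. Within 2 Mb on either side lie 30 other annotated genes, of which 16 had no count in any library and 6 passed the filter on low counts. Fam84b, about 1132 kb before the Myc start, was at 119 and 99.3 CPM in control, 44.0 to 61.0 CPM in KO1 and 6.99 to 25.6 CPM in KO2 libraries. The 3 groups did not overlap, and Fam84b fell by 1.79 on the log2 scale (SE 0.59, edgeR adjusted p = 0.0668) and differed between the clones by 1.60 (SE 0.36, edgeR adjusted p = 0.0247). Fam49b, a regulator of actin through RAC1, was at 189 and 151 CPM in control and 212 to 280 CPM in KO libraries, with a log2 fold change of 0.55 (SE 0.16, edgeR adjusted p = 0.0428). Both calls were lost with either control library left out and under the replicate block. 9930014A18Rik, on the other strand within Fam84b, was lower in KO2 (log2 fold change -0.93, SE 0.36, edgeR adjusted p = 0.0914) and was not called in KO1 (0.11, SE 0.39). Reads of Fam84b and 9930014A18Rik cannot be told apart where they share bases. Asap1, Gsdmc4 and Gm20717 were not called in any comparison.

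By Pearson r of log2(CPM + 1) over the 9 libraries, the genes most like Myc among 12027 with a mean of at least 1 CPM were Agtpbp1 (r = 0.98), Mfap1b (0.98), Crbn (0.97), Phf20l1 (0.97) and Mnat1 (0.96). Mnat1, a subunit of the CDK-activating kinase, was at 70.5 and 68.0 CPM in control, 27.1 to 31.9 CPM in KO1 and 15.2 to 37.5 CPM in KO2 libraries, and so split the groups much as Myc did. Among the genes most like Pvt1 were Prkg2 (0.96), Snhg6 (0.96), Ppp2cb (0.96) and Gm17066 (0.95). Prkg2, a cGMP-dependent protein kinase, was at 472 and 325 CPM in control, 110 to 148 CPM in KO1 and 181 to 254 CPM in KO2. Pvt1 itself ranked 2210 for likeness to Myc. The libraries come from only 3 cell lines and differ in depth, so these values describe the libraries only.

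The wider pathway was read from 8 lists of 130 genes chosen by role, in the fit of all KO against control libraries. Of the extended network, Mlx, the MAX-like partner of MondoA, was at 18.3 and 22.7 CPM in control and 31.8 to 51.3 CPM in KO libraries, and it rose by 1.00 on the log2 scale (SE 0.21, edgeR adjusted p = 0.0123). Bmyc, a short MYC relative that lacks the DNA-binding part, was at 2.04 and 1.65 CPM in control and 0 to 0.796 CPM in KO libraries, and it fell by 2.65 (SE 0.91, edgeR adjusted p = 0.0776). Mga was at 66.6 and 56.5 CPM in control and 51.5 to 111 CPM in KO libraries, with a log2 fold change of 0.55 (edgeR adjusted p = 0.184). Mlxip, which codes for MondoA, had a log2 fold change of 0.05 (edgeR adjusted p = 0.890). Mlxipl was at most 0.132 CPM in any library, and Mycs was at 0 throughout, so neither was tested. Mlx and Bmyc were not both called with a control library left out or under the replicate block. Fewer of all genes were called there too.

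Of 23 coactivators and corepressors of the network, 3 rose and 1 fell, or 17.4% called beside 22.6% of all genes, and their median was 0.13 on the log2 scale beside 0.06. The ATPases Ruvbl2 (log2 fold change 0.95, SE 0.16) and Ruvbl1 (0.61, SE 0.20) and the MYC-binding host cell factor Hcfc1 (0.92, SE 0.14) were higher in KO cells. Sap30, a subunit of the SIN3 complex that MXD proteins recruit, was at 44.0 and 45.6 CPM in control and 23.6 to 38.1 CPM in KO libraries, a log2 fold change of -0.59 (SE 0.20, edgeR adjusted p = 0.0757). With either control library left out, which leaves a single control, fewer of this list and fewer of all genes were called.

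Of 14 genes for MYC protein turnover, 4 rose and 2 fell, or 42.9% called beside 22.6% of all genes, with a median of 0.08. Skp2, a ubiquitin ligase subunit that acts on MYC and on the CDK inhibitor p27, was at 37.7 and 34.9 CPM in control and 77.9 to 114 CPM in KO libraries and rose by 1.38 on the log2 scale (SE 0.19, edgeR adjusted p = 0.00260). Among the others that rose were Cip2a (0.66) and Gsk3a (0.48). Gsk3b, which codes for a kinase that marks MYC for degradation, fell by 0.84 (SE 0.13, edgeR adjusted p = 0.00362), and Usp36, a nucleolar enzyme that removes ubiquitin from MYC, fell by 0.63 (SE 0.14, edgeR adjusted p = 0.0138). Protein was not measured. Fewer of them were called with either control library left out, as was the case over all genes.

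Of 10 regulators of Myc transcription, 2 rose and 1 fell, a count near the background of 22.6%, with a median of 0.07. Ctnnb1, which codes for beta-catenin, rose by 0.99 (SE 0.21, edgeR adjusted p = 0.0126) and Rbpj, the DNA-binding factor of Notch signaling, fell by 0.52 (SE 0.18, edgeR adjusted p = 0.0734). The other that rose was Nme2, with a log2 fold change of 1.02 (edgeR adjusted p = 0.0116), but its reads can be shared with the near-identical Nme1. These calls were lost with either control library left out, where fewer of all genes were called as well.

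In the 3 lists of genes known as induced by MYC, 31 of 65 genes rose (47.7%) and 4 fell (6.15%), beside 11.9% and 10.7% of all genes, and the 3 lists differed in their counts. Of 12 cell cycle genes, 9 rose and 0 fell, with a median log2 fold change of 1.20. Ccne1, which codes for cyclin E, was at 4.15 and 5.22 CPM in control and 18.8 to 33.1 CPM in KO libraries, a rise of 2.50 (SE 0.29, edgeR adjusted p = 0.00125). Mcm4, of the replicative helicase, was at 60.1 and 68.2 CPM in control and 241 to 409 CPM in KO libraries, a rise of 2.33 (SE 0.26, edgeR adjusted p = 0.00125). Id2, an inhibitor of bHLH factors, was at 1.78 and 2.87 CPM in control, 11.1 to 17.0 CPM in KO1 and 35.1 to 84.3 CPM in KO2, a rise of 4.03 (SE 0.94, edgeR adjusted p = 0.0190). Leaving out either control library gave fewer calls in this list and over all genes.

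Of 32 genes of metabolism and translation, 17 rose and 4 fell, with a median of 0.71. Tfrc, the transferrin receptor, rose by 2.25 (SE 0.40, edgeR adjusted p = 0.00630) from 121 and 97.0 CPM in control to 314 to 885 CPM in KO libraries. Ldha, lactate dehydrogenase, rose by 1.80 (SE 0.19, edgeR adjusted p = 0.00104) and the purine synthesis gene Gart by 1.53 (SE 0.24, edgeR adjusted p = 0.00410). The 2 chains of the LAT1 amino acid transporter went the other way: Slc7a5 was at 828 and 1090 CPM in control and 251 to 516 CPM in KO libraries and fell by 1.42 (SE 0.25, edgeR adjusted p = 0.00588), and Slc3a2 fell by 1.34 (SE 0.27, edgeR adjusted p = 0.0102). Mthfd2, of mitochondrial one-carbon metabolism, fell by 1.36 (SE 0.36, edgeR adjusted p = 0.0322). The count of 21 was lower with either control library left out, and so was the count over all genes.

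Of 21 genes of the nucleolus and ribosome assembly, 5 rose and 0 fell, with a median of 0.30, so that its 23.8% called was close to the 22.6% of all genes. Rrp9 rose by 1.14 (SE 0.28, edgeR adjusted p = 0.0238), Bop1 by 0.95 (SE 0.29, edgeR adjusted p = 0.0506) and Nop16 by 0.84 (SE 0.21, edgeR adjusted p = 0.0224). The 5 calls were lost with either control library left out, where fewer of all genes were called too.

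Of 12 genes known as repressed by MYC, 9 were tested, of which Cebpa and Cdkn1c passed the filter on low counts only through the control libraries, where they are high, and so had to be lower in KO cells. Of the 7 others, 3 fell and 0 rose, with a median of -0.70, beside 10.7% lower and a median of 0.06 over all genes. Gadd45a, a growth arrest gene, was at 184 and 238 CPM in control, 24.5 to 49.6 CPM in KO1 and 8.62 to 20.4 CPM in KO2, and fell by 3.16 (SE 0.46, edgeR adjusted p = 0.00317). Ndrg1 fell by 2.01 (SE 0.32, edgeR adjusted p = 0.00409) and Cdkn1b, which codes for p27, fell by 0.70 (SE 0.17, edgeR adjusted p = 0.0235), both named after their values were seen. As a description, the log2 fold change was -3.15 for Cebpa and -2.90 for Cdkn1c. The count of 3 became 2 under the replicate block, without Cdkn1b. With either control library left out Cdkn1b was not called either, and fewer of all genes were called as well.

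**Figure D4:**
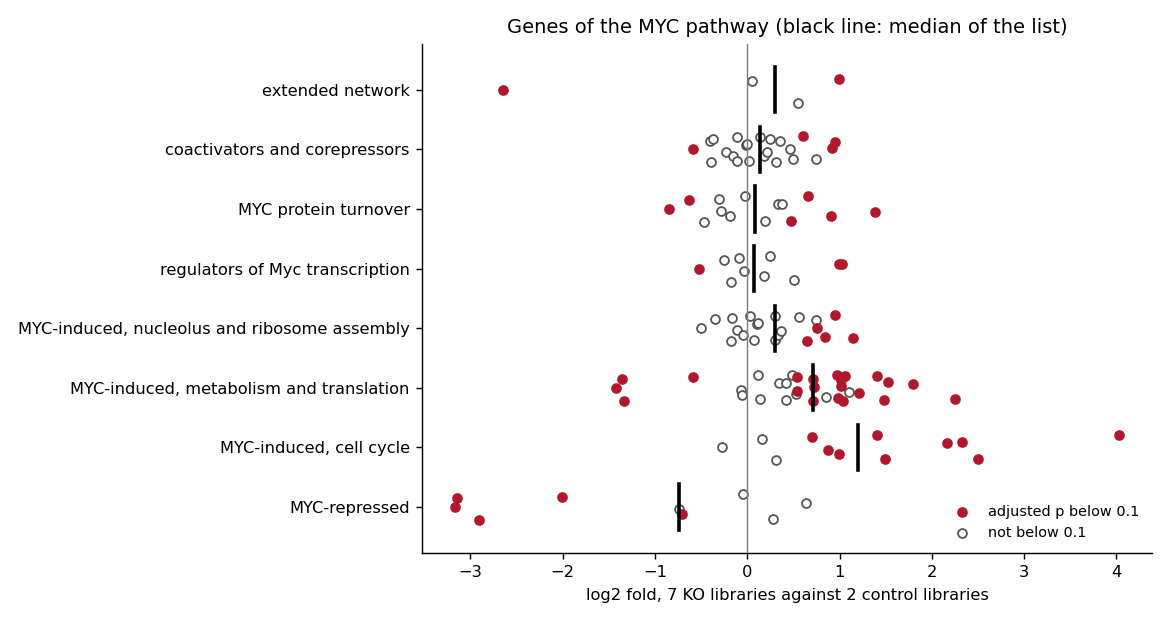
Log2 fold change of KO against control (x axis) of the tested genes of 8 lists, 1 point to a gene, red where the adjusted p was below 0.1 in edgeR, with the median of each list as a black line. The cell cycle genes reach from below 0 to 4.03 with a median of 1.20, and the MYC-repressed genes have a median of -0.74 that includes the 2 genes which passed the filter only through the controls.

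MaTAR25 ChIRP-seq peaks lay in Pvt1 in all 4 lists and near Myc in 1 list. The lists come from pools of the even, the odd or all 14 oligos in 4T1 cells and of all oligos in NDL cells, were called by the authors on pooled replicates, and allow no replicate test. Pvt1, a gene of 340 kb, held 12 peaks in the even list, 14 in the odd list, 14 in the total list and 8 in the NDL list. This is 35.3, 41.2, 41.2 and 23.5 peaks per Mb, beside 23.7, 22.5, 28.2 and 25.8 peaks per Mb over all chromosomes, so the density in Pvt1 was above that of the genome in the 3 lists of 4T1 cells and below it in the NDL list. The strongest Pvt1 peak ranked 8 of 64607 by score in the even list, 6 of 61311 in the odd list, 5 of 76806 in the total list and 49 of 70329 in the NDL list. It lay in intron 1, with its centre 25.8 kb after the Pvt1 start in the even list and 25.9 kb in the odd list, at 62063479 to 62064479 on chromosome 15 in the total list. Likeness of the Pvt1 peaks to the oligos was not tested. A peak at the Pvt1 promoter ranked 364 in the even list and 1737 in the total list and was in neither the odd nor the NDL list. The Myc gene with the 10 kb before it held a single peak, in the odd list only, at rank 17515 and 4.97 kb before the start. At the mean density of each list a window of this length, 14.98 kb, would hold 0.337 to 0.422 peaks, so counts of 0 and 1 are near the background, and nothing is read from them.

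**Figure D5:**
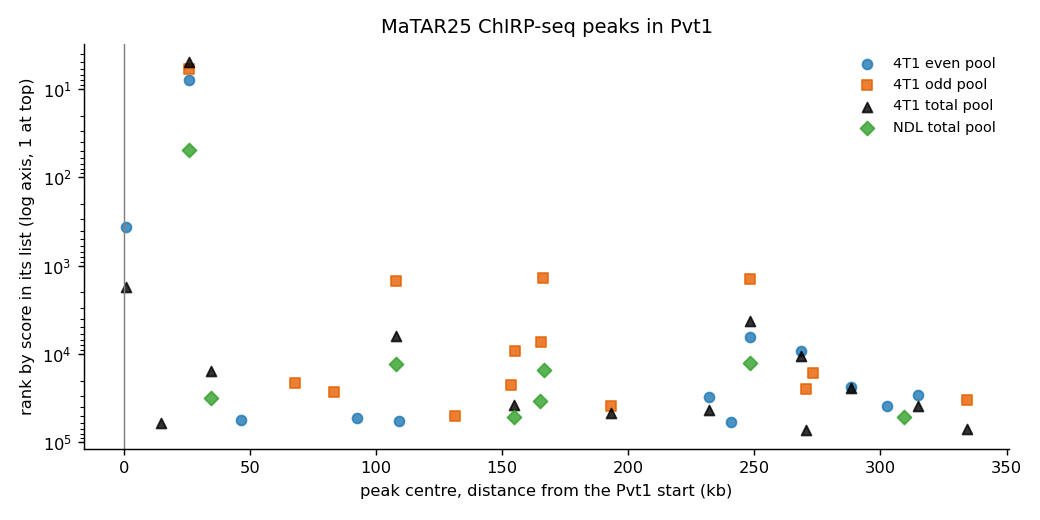
Rank by score (y axis, log scale, rank 1 at the top) of MaTAR25 ChIRP-seq peaks against the distance of their centre from the Pvt1 start in kb (x axis), for the 3 lists of 4T1 cells and the list of NDL cells. In every list the best rank, between 5 and 49, is in intron 1, and the next best rank of any list is 364.

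Of the members called in the RNA-seq, Mxd3, a gene about as short as Myc, held no peak in any list, and nothing is read from this either. Mxd4 with the 10 kb before it held 2 peaks in the even, 2 in the odd, 3 in the total and 3 in the NDL list. A peak near the end of its last exon was in all 4 lists. It ranked 1020 in the even list, 312 in the odd list, 296 in the total list and 511 in the NDL list, and in the total list it spanned chr5:34174545-34175169. The 14 oligos were compared with this stretch without gaps on both strands. The best match was with oligo 4, of the even pool, at 16 of 20 bases, at chr5:34174817-34174836 in the 3′ untranslated part of Mxd4, and is shown with identical bases in capitals, both written along the plus strand.
oligo 4: CAGGTGgTGGAGATGGAatg
Mxd4 site: CAGGTGcTGGAGATGGAgca
The longest unbroken run was 10 bases, and every other oligo matched at 13 or fewer of 20 bases. Oligo 4 is not in the odd pool, in which the same peak had a rank of 312. Mxd4 is on the minus strand, so the oligo as written is complementary to its transcript. The part of this likeness in the peak was not tested.

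The windows of the other members differ in length, and their peak counts were not set beside the mean density of the lists. Mycl, Max, Mxd1, Mxi1 and Mnt had at most 3 peaks in a list with the 10 kb before the gene counted, and none ranked above 3929, which was a Max peak of the odd list. Mycn, which had no counts, had a peak that overlapped the 10 kb before it in all 4 lists, but not at the same site. The even peak (rank 1668) and the best total peak (rank 2057) were centred 10.2 and 10.1 kb before the start, at the window edge. The odd peak (rank 8416) and the NDL peak (rank 22879) were centred 1.2 kb before it. Near these lay another total peak, of rank 26588, and no even peak.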

How the data were processed

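RNA-seq of polyadenylated RNA was deposited as whole-number counts per gene, which the authors made by mapping to mm10 with STAR and counting with HTSeq, without normalization. 1 library, KO2 replicate 2, lists each gene 3 times and was used once. The deposited ChIRP-seq peak score is that of HOMER on pooled replicates mapped with Bowtie2, with a scaling that neither the labels nor the methods name. Gene positions and exon lengths are from GENCODE vM21. Of 45318 genes, 733 had no symbol.

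Counts were fitted in R 4.3.3 with edgeR 4.0.16 (TMM, filterByExpr, quasi-likelihood, Benjamini-Hochberg, threshold 0.1), with KO1 and KO2 as 1 group or as 2 groups, and with DESeq2 1.42.0 as an alternative. Permutations and ratios used Python 3.11.15. Scripts were tested on simulated data. Alternatives were RLE scaling, other filters and thresholds, other groupings, a replicate block and leaving out each library. For the permutation test these were chosen after seeing the data. The members and lists were chosen with earlier results of these data known. Named were all members, called neighbours, the 5 genes most like Myc or Pvt1, and the 3 largest called rises and falls of each list (all genes of a list of 6 or fewer). Some genes that this rule names are not reported here.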

Additional observations from a re-analysis of the deposited data

How the results depend on the processing

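The limits of these results lie in the 2 control libraries, in clones each grown from 1 cell and in a depth at which MaTAR25 itself had at most 35 counts in a control library. Direction and call of Myc, Pvt1, Mxd3 and Mxd4 in KO against control cells held with DESeq2, RLE scaling, a threshold of 0.05, either other filter on low counts, and KO1 and KO2 as separate groups. Under the replicate block 2 members were called in place of 4, Myc and Mxd3. The labels give the groups the same replicate numbers, but same-numbered libraries did not deviate together (correlations of -0.149 to 0.043 of their deviations from the group means), so the numbers were not taken as a pairing.

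Leaving out each library in turn gave 0 to 5 members called in KO, 0 to 5 in KO1, 2 to 5 in KO2 and 0 to 1 between the clones. The lowest counts in KO and in KO1 were those without control replicate 1, and without control replicate 2 each was 1. Over all genes the same step gave 462 to 3976 called in KO, 1482 to 5661 in KO1, 1366 to 5352 in KO2 and 874 to 4077 between the clones. For the other pathway genes the count of 55, which includes Cebpa and Cdkn1c, ranged from 17 to 60, for the neighbours of Myc and Pvt1 from 0 to 2, and for members at the smallest p their exact permutation test allows from 2 to 5, against 3 with all libraries. That smallest p is 0.0278 with all libraries, 0.0357 without 1 KO library and 0.125 without 1 control library, so no member can be below 0.05 in the last case. A threshold of 0.05 gave 2235 genes called in KO, 1643 between the clones and 1 neighbour. The replicate block gave 1952 genes in KO, 1736 between the clones and 0 neighbours. Fits of only the groups compared gave 7752 genes in KO1 and 1932 between the clones. Where fewer genes or samples enter, that is the alternative's own construction, and for the rest the cause was not tested.

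Some log2 fold changes of genes that were not called changed sign. Leaving out single libraries gave -0.63 to 0.17 for Mycl in KO1, -0.23 to 0.22 for Mxi1 in KO1, -0.0090 to 1.04 for Mycl between the clones, -0.14 to 0.077 for Max between the clones, -0.24 to 0.10 for Mnt between the clones and -0.023 to 0.10 for Mlxip in KO. With at least 10 counts in every library Mxi1 in KO1 was at -0.00073, and under the replicate block Mnt between the clones was at 0.12. Per kilobase of exon, Pvt1 was at 2.49, 2.13 and 4.24 per 100 of Myc in control, KO1 and KO2, lower than as counts because Pvt1 has the longer exons.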
